A study of Rattus norvegicus with 4 samples.

Results

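The genes described here are 6 aquaporins (Aqp1, Aqp2, Aqp3, Aqp4, Aqp5 and Aqp9) and 4 carbonic anhydrases (Car2, Car3, Car4 and Car12), chosen by name for their link to fluid balance in the inner ear. Their current rat symbols matched 12 of the 33849 gene probes on the array, 3 of them for Aqp4 and 1 for each other gene, so that all 10 genes had a probe among 12325 named genes. Messenger RNA levels were compared across the depth of the rat crista ampullaris, where a semicircular canal senses head rotation, after laser capture microdissection. The hair cell layer (HCL) was the superficial part of the epithelium, captured first; it held hair cells of type I and type II along with cytoplasm of the supporting cells that lie between them. The supporting cell layer (SCL) was captured next, below it, and held the cell bodies of the supporting cells on the basal lamina. Each layer had 2 single-colour arrays of amplified polyadenylated RNA, and strain, age, sex and treatment are not given in the sources used here. The labels do not say whether replicate arrays represent different animals or captures, so p-values measure only the spread between the replicates, which may be technical.

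The sensory epithelium of the ear separates endolymph, rich in potassium, from perilymph, and dark cells beside the crista secrete that potassium. Aquaporins are membrane channels that let water, and in the case of the aquaglyceroporins also glycerol and other small solutes, follow osmotic gradients across epithelia. Carbonic anhydrases interconvert carbon dioxide and bicarbonate and so supply the protons and bicarbonate that exchangers and pumps move between the cells and the ear fluids.

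Of the 10 genes, 5 were detected well enough to be tested, and the layers differed in all 5 after normalization between arrays. The water channel Aqp4 was higher in the HCL at its brightest probe. The aquaglyceroporins Aqp3 and Aqp9 and the carbonic anhydrases Car3 and Car4 were higher in the SCL. The other 5 genes had too little signal: Aqp1, Aqp2 and Car12 were detected on no array, Aqp5 on 1 HCL array and Car2 on 1 SCL array. A probe counts as detected on an array where the scanner software gave it the quality flag good or saturated. It was tested with 2 or more detections among the 4 arrays, and called where limma gave an adjusted p under 0.05. Of the 16915 named gene probes, 53.6% were tested, 38.0% were detected on all 4 arrays, 6.65% on 1 array and 39.7% on none. Car3 and Car4 passed this filter through the SCL alone, so they had to differ, and the count of called members is not support for a pattern. By the same rule 65.4% of all 7768 tested genes were called (67.4% of all 16483 tested probes). The share called higher was 28.2% for the SCL and 37.2% for the HCL. The median change of the 5 tested members was 0.83 on the log2 scale and that of all tested genes was -0.10. Changes are log2 differences of normalized intensity, SCL minus HCL, given with their standard errors from limma. In tissue of this kind fewer cells of a type and less RNA per cell cannot be told apart.

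The arrays differed in overall brightness, which bears on every value below. Raw intensity had a median of 26.5 and 16.98 on the HCL arrays and 12.1 and 12 on the SCL arrays, and 39.7% to 48.8% of gene probes were detected per array. Quantile normalization, which gives all arrays the same distribution of values, therefore raised the SCL values relative to the others. Negative control spots had a median raw intensity of 4.15 to 5.36 and a 95th percentile of 11.8 to 20.1. Markers of hair cells followed the labels. Of 14 tested, 11 were higher in the HCL and 0 higher in the SCL at an adjusted p under 0.05 by limma. The shares over all tested genes were 37.2% and 28.2%, and these stand beside each count of called markers below. Cdh23 and Espn, both among the 11, passed the filter through the HCL alone, so their direction was fixed. Markers of supporting cells did not set the layers apart, with 7 of 17 tested genes higher in each.

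The promoter windows of the 3 members detected on all 4 arrays are shown because 2 of these genes were higher in the SCL and 1 in the HCL. They come from RefSeq (build GRCr8), run from 250 bases before to 50 bases after a gene start, and are written 5′ to 3′ on the strand of the gene. RefSeq gives Aqp4 a pair of starts. The windows lie at chr5:61040634-61040933 for Aqp3, chr8:80718139-80718438 for Aqp9, and chr18:6798793-6799092 and chr18:6797877-6798176 for the upstream and downstream starts of Aqp4, all on the minus strand. Capitals mark matches, on either strand, to TATAAA (a core promoter box), GGGCGG (GC box), ACGTG (core of the hypoxia response element), TGTTCT (an arm of the glucocorticoid receptor site) and ACAATG (core bound by SOX factors). None of these motifs contains another.
Aqp3: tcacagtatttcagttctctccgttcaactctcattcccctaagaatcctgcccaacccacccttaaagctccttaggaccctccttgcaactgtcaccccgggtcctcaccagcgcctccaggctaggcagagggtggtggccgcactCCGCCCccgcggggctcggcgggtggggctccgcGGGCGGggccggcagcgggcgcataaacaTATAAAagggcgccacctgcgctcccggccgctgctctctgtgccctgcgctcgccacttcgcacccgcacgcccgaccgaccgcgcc
Aqp9: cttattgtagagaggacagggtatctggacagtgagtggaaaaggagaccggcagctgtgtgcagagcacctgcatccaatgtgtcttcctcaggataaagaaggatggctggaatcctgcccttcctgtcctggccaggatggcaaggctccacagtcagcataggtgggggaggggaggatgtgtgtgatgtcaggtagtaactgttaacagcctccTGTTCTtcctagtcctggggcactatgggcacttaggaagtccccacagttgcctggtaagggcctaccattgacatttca
Aqp4 upstream start: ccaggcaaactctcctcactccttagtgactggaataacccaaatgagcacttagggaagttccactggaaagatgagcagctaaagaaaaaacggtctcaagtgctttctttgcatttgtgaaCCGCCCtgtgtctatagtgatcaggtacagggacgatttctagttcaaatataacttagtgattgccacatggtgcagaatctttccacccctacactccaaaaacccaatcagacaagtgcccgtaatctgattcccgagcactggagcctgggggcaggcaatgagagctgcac
Aqp4 downstream start: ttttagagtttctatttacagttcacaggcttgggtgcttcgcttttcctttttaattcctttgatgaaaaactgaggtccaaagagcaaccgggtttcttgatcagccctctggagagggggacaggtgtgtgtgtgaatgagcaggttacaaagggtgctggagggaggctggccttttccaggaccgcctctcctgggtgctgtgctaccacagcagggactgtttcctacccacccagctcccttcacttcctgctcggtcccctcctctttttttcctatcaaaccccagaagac
The Aqp3 window held TATAAA at position -38 and GGGCGG at positions -101 and -67, counted from the gene start. The Aqp9 window held TGTTCT at position -31 and none of the other motifs. The upstream Aqp4 window held GGGCGG at position -126 and the downstream window held none of the 5 motifs. Of all 33469 RefSeq promoter windows of 300 bases, 14.2% held the core promoter box, 33.1% the GC box, 19.3% the hypoxia core, 20.7% the glucocorticoid receptor arm and 13.2% the SOX core. The GC content was 67.3% for Aqp3, 53.3% for Aqp9, and 47.3% and 51.3% for the windows of Aqp4, beside a median of 51.7% over all windows. A match is a description of the letters and not evidence that a factor binds there. The table held windows for 8 of the 10 genes, and none was matched for Car2 and Car3.

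Aqp4 is a channel that carries water alone and is best known from glia and from the basal membranes of supporting cells in the ear. At its brightest probe (GE14909) the raw intensities were 345 and 298 on the HCL arrays and 112.6 and 97.3 on the SCL arrays, all detected. The layers did not overlap, before or after normalization. The normalized intensity was 259 ± 4.89 (SD, n = 2) in the HCL and 135 ± 10.9 (SD, n = 2) in the SCL. The change was -0.94 ± 0.09, which is 1.92-fold higher in the HCL (limma adjusted p = 0.00493). Normalized values did not overlap for 89.1% of all named tested probes, with the HCL above in 48.9% and the SCL above in 40.3%. Raw values did not overlap with the HCL above in 72.8% and with the SCL above in 15.4%. Separation by itself therefore does not mark out a gene here. Of 7 tested markers of Schwann cells and glia, 3 were higher in the HCL (Ncam1, Sox10 and Pmp22) and 2 in the SCL (Prx and S100b). Ncam1 passed the filter through the HCL alone, so its direction was fixed. The part of these markers in the Aqp4 difference was not tested. Gfap and Mbp were detected nowhere, and the summed normalized level of 8 was 3354 and 3360 in the HCL and 3606 and 3568 in the SCL.

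The other Aqp4 probes were dimmer and were not called. The second probe (GE1292531) read 47.9 and 45.2 raw in the HCL and 31.8 and 19.9 in the SCL, the last of these undetected. Its layers did not overlap in raw intensity but overlapped after normalization, and its change of -0.14 ± 0.25 was not called (limma adjusted p = 0.638). The third probe (GE19989), listed with a RefSeq messenger RNA where the other probes have expressed sequence tags, read 26.1 and 5.45 raw in the HCL and 2.45 and 4.64 in the SCL, and was detected on no array, with the HCL values above the others before and after normalization. Averaging the tested probes gave -0.54 ± 0.16, which was not called (limma adjusted p = 0.0519). The call for Aqp4 therefore stands on 1 of its 3 probes.

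Aqp3 is an aquaglyceroporin of basolateral membranes in many epithelia. Its probe (GE19654) was detected on all 4 arrays and read 111.9 and 80.1 raw in the HCL and 105.4 and 110.3 in the SCL. The raw values overlapped, since the first HCL array was the highest of the 4. After normalization they were 84.5 and 71.9 against 133.1 and 144.8, without overlap. The change was 0.83 ± 0.12, or 1.78-fold higher in the SCL (limma adjusted p = 0.0111). Without normalization between arrays it was 0.19 ± 0.21 and was not called (limma adjusted p = 0.463).

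Aqp9 is an aquaglyceroporin with a broad solute range, known from liver and leukocytes. Its probe (GE1217626) was also detected on all 4 arrays, at raw intensities of 157 and 142 in the HCL and 155 and 153 in the SCL. The raw values overlapped here too. Normalized intensities were 120.1 and 124.9 against 196.9 and 204, and the layers did not overlap. The change was 0.71 ± 0.07, or 1.64-fold higher in the SCL (limma adjusted p = 0.00530). Without normalization it was 0.05 ± 0.13 (limma adjusted p = 0.773). For both aquaglyceroporins the layers therefore differed relative to the other probes of each array, not in raw brightness. Of 5 neutrophil markers with a probe, 4 (S100a8, Mpo, Camp and Cxcr2) were undetected everywhere, and the summed normalized level of the 5 was 51.2 and 69.8 in the HCL and 50.1 and 61.3 in the SCL.

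The remaining aquaporins were at or near background. Aqp5, the channel of exocrine glands that is also known from the cochlea, read 31.9 on the first HCL array, where it was detected, and 16.03 on the second, where it was not. It read -0.89 and -0.40 on the SCL arrays, so the layers did not overlap, but with 1 detected array it was not tested. With no filter on dim probes its change was -3.47 ± 0.21 (limma adjusted p = 0.0187), which measures no size because the SCL values lay at the floor of the scale. Aqp1, the constitutive water channel of red cells and capillary endothelium and of connective tissue in the ear, read 4.40 to 5.72 on all 4 arrays, at the level of the negative control spots. Aqp2, the vasopressin-regulated channel of the kidney collecting duct, read 7.34 and 0.23 in the HCL and 5.31 and 18.2 in the SCL. No difference was detectable for Aqp1 or Aqp2. In the RefSeq annotation (GRCr8) Aqp2, Aqp5 and Aqp6 are consecutive genes, and the 3 did not share a pattern of detection: Aqp2 was detected on 0 arrays, Aqp5 on 1 and Aqp6 on 4.

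**Figure D1:**
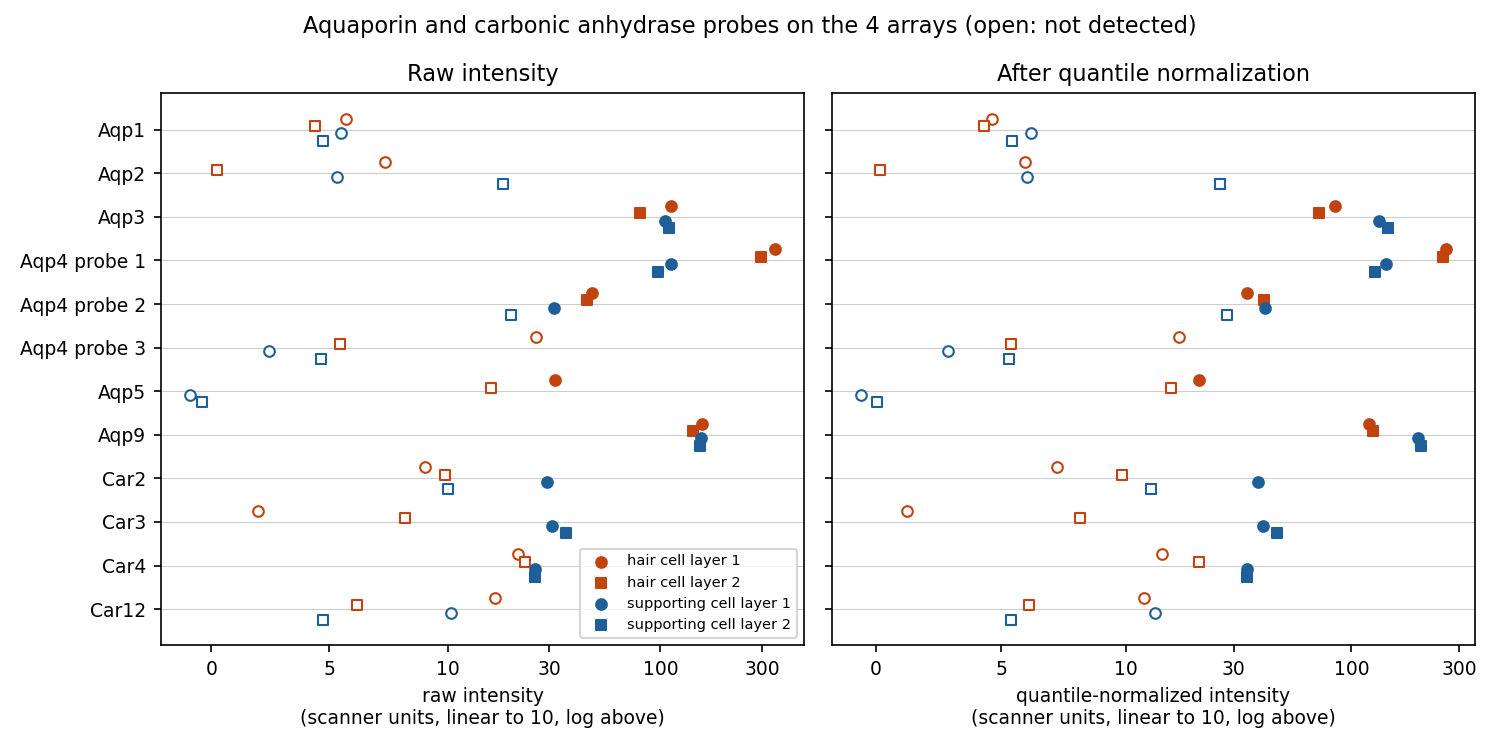
Raw (left) and quantile-normalized (right) intensity in scanner units, linear to 10 and logarithmic above, of the 12 aquaporin and carbonic anhydrase probes; each point is 1 array, circles are replicate 1, squares replicate 2, and open symbols were not detected. The raw values of Aqp3 and Aqp9 overlap between the layers and their normalized values do not, while the brightest Aqp4 probe is higher in the HCL in both panels.

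Car3, a cytosolic carbonic anhydrase of low activity that is abundant in muscle and fat, was detected on the SCL arrays only. Its probe (GE20641) read 1.96 and 8.18 raw in the HCL, within the range of the negative control spots, and 31.1 and 35.9 in the SCL. The layers did not overlap before or after normalization. Because the HCL signal was not above background, the fold has only a lower limit. By the rule given next, Car3 was at least 2.72-fold higher in the SCL (limma adjusted p = 0.0381). The limit is the mean of the brighter layer against the lowest detected signal of the other layer's arrays. The probe's own signal takes its place where that is higher. This limit and each such limit below are not strict, since undetected spots can read above the lowest detected signal. After normalization the lowest detected signal was 13.9 and 18.5 on the HCL arrays, against 26.6 and 28.3 on the SCL arrays. With values below the highest of these raised to it, the change of Car3 was 0.62 ± 0.09. The fitted change, no measure of size here, was 3.57 ± 0.90. Leaving out SCL replicate 1 gave 3.68 and leaving out SCL replicate 2 gave 3.48, and the call was lost in each case. With a lone SCL array, the spread came from the HCL readings, both undetected. Leaving out HCL replicate 1 gave 2.36 and leaving out HCL replicate 2 gave 4.68, so the fitted change moved with HCL readings at background. Detection on both arrays of the SCL and neither of the HCL held for 1.90% of the 16915 named gene probes, and the opposite pattern for 8.65%.

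Skeletal muscle and fat markers were read beside Car3. Of 13 muscle markers with a probe, 8 were undetected everywhere (Ckm, Acta1, Myh1, Myh4, Myh7, Tnnt3, Tnni2 and Actn3). The summed normalized level of the 13 was 1713 and 1676 in the HCL and 475 and 569.96 in the SCL, carried by Tnnc2, Myh2 and Pvalb, the last of which hair cells also express. Of 5 tested, 3 were higher in the HCL and 1, Myoz1, was higher in the SCL (0.87 ± 0.15, limma adjusted p = 0.0155). Myh2, among the 3, passed the filter through the HCL alone, so its direction was fixed. Of 7 fat cell markers, Adipoq, Fabp4, Cfd and Lep were undetected everywhere, and the summed level was 99.6 and 123.6 against 44.9 and 111.6. A single Pparg probe gave 72.0 of the last sum and read -0.11 on the first SCL array. The tested fat markers were Lpl and Cidec, and both passed the filter through the HCL alone. Lpl was at least 1.52-fold higher there (limma adjusted p = 0.0120), and Cidec was not called (limma adjusted p = 0.247). The part of these cells in the Car3 difference was not tested.

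Car4, which a lipid anchor holds on the outer face of the plasma membrane, followed the same pattern of detection with a smaller margin. Its probe (GE1287333) read 21.3 and 23.1 raw in the HCL, both undetected, and 25.7 on each SCL array, both detected. The normalized values were 14.4 and 21.1 against 34.4 and 34.5, without overlap. The change was 0.98 ± 0.22 toward the SCL (limma adjusted p = 0.0303). The lower limit by the same rule equals the fitted fold of 1.98, because the HCL signals of the probe, though undetected, lay above the lowest detected signal of their arrays. With values below the highest detection limit of the arrays raised to it, the change was 0.28 ± 0.03 (limma adjusted p = 0.00559). The call was lost without normalization (change 0.21 ± 0.13, limma adjusted p = 0.208). It was also lost without SCL replicate 1 (limma adjusted p = 0.0952) and without replicate 2 (limma adjusted p = 0.0982).

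Car2, the high-activity cytosolic enzyme known from red cells, osteoclasts and secretory epithelia, read 9.03 and 9.90 raw in the HCL and 29.4 and 10.1 in the SCL. The first SCL array alone detected it, and the second read close to the HCL. With no filter on dim probes its change was 1.40 ± 0.68, not past the test (limma adjusted p = 0.261). Car12, a transmembrane enzyme with its active site outside the cell, read 16.8 and 6.15 in the HCL and 10.4 and 4.71 in the SCL and was detected nowhere. Its layers overlapped. No difference was detectable for Car2 or Car12 at this signal. Of 5 tested osteoclast and macrophage markers, 3 were higher in the SCL and 2 in the HCL. The osteoclast protease Ctsk was 5.05-fold higher in the SCL (limma adjusted p = 0.00344). Those higher in the HCL were Aif1, at least 6.26-fold (limma adjusted p = 0.0283), and Cd68. Both passed the filter through the HCL alone, so their direction was fixed. Cd68 also rested on 1 SCL array. Its spot on the second SCL array, left out as irregular, read 90.3 raw, above the HCL readings of 58.8 and 41.1. Acp5, Calcr and Mmp9 were detected nowhere.

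The rest of both families was read from lists of relatives. Of 6 other aquaporins with a probe, Aqp6 alone was tested. Its change of 0.27 ± 0.21 did not pass (limma adjusted p = 0.314). Mip, Aqp7, Aqp8 and Aqp12a were detected nowhere. Of 9 other carbonic anhydrases with a probe, 4 were tested, 2 higher in the SCL and 1 higher in the HCL, beside the 28.2% and 37.2% of all tested genes. Car7, a cytosolic enzyme known from neurons, read 633 and 675 raw in the HCL and 83.7 and 74.1 in the SCL, well apart. Its change was -2.37 ± 0.13 (limma adjusted p = 0.00196). Car11, a related protein without catalytic activity, read 865 and 726 against 1154 and 1089, and changed by 1.21 ± 0.07 (limma adjusted p = 0.00210). Both kept their direction and their call under each of the 5 scalings tried. Car1, another enzyme of red cells, changed by 0.65 ± 0.14 (limma adjusted p = 0.0276), but read 93.4 and 95.7 raw against 89.4 and 97.4 and had a change of -0.02 without normalization.

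Red cell markers stood beside these enzymes as follows. Of 4 tested, Ahsp alone was higher in the SCL, at least 7.67-fold, beside 28.2% of all tested genes. It passed the filter through that layer alone, so that its direction was fixed. Hba-a3 (0.19 ± 0.07) was not called (limma adjusted p = 0.0956). The summed level of the 6 markers with a value on every array was 1112 and 1168 in the HCL and 1438 and 1486 in the SCL. In the same annotation Car2, Car3 and Car1 are consecutive genes. The tested pair of this cluster, Car3 and Car1, was higher in the SCL after normalization, while Car2 could not be tested. Car14 had a pair of tested probes, with changes of 0.43 ± 0.14 at the brighter and -1.31 ± 0.60 at the dimmer. Neither was called (limma adjusted p = 0.0710 and 0.134). The dimmer probe passed the filter through the HCL alone, so its sign was fixed. The value of -1.31 rests on SCL readings of 7.46 and 16.9 raw, both undetected. The opposite signs therefore do not show that the probes disagree.

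Of 22 transporters of bicarbonate, protons and chloride with a probe, 10 were tested. Among these, 4 were higher in the HCL and 0 higher in the SCL at an adjusted p under 0.05 by limma, beside 37.2% and 28.2% of all tested genes, and the median change was -1.04. Slc4a3, Slc4a4 and Atp6v0a4 passed the filter through the HCL alone, so their direction was fixed by it. The sodium-proton exchangers Slc9a2 and Slc9a8 changed by -2.65 ± 0.10 and -2.13 ± 0.16 (limma adjusted p = 0.00135 and 0.00292). Of the other Slc9a2 probes, 1 was called in the same direction, but it passed the filter through the HCL alone, so its direction was fixed. The other had detections in both layers, and its change of 0.42 ± 0.23 was not called. The sodium-bicarbonate cotransporter Slc4a4 was at least 1.73-fold higher in the HCL at its brighter probe and at least 1.94-fold at the other. The proton pump subunit Atp6v0a4 was at least 1.09-fold higher there. The chloride-bicarbonate exchangers did not pass: Slc4a2 had a change of 0.36 ± 0.14 (-0.38 without normalization) and Slc4a3 of -1.90 ± 0.56. The anion exchanger pendrin (Slc26a4) and 11 more genes of the list were detected on no array.

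Of the genes of dark cell potassium secretion, the sodium-potassium-chloride cotransporter Slc12a2 was higher in the SCL (0.32 ± 0.07, limma adjusted p = 0.0282) and had a change of -0.39 without normalization. The brightest probe of the sodium pump subunit Atp1b2 was higher in the HCL (-0.69 ± 0.07, limma adjusted p = 0.00508), and a dimmer probe was called in the opposite direction (0.88 ± 0.13). The defining dark cell genes Kcne1 and Slc26a4 were detected on no array.

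The scaffold that holds Aqp4 in the membrane is the dystroglycan complex. Of 5 tested genes in the list of its anchors and of volume regulation, dystroglycan (Dag1) alone was called. It was at least 2.59-fold higher in the SCL (limma adjusted p = 0.0236), and passed the filter through that layer alone, so that its direction was fixed. Utrophin (Utrn, 1.53 ± 0.54), agrin (Agrn, 0.30 ± 0.10) and Dtnb (0.29 ± 0.12) were not called, nor was the potassium channel Kcnj10 (0.54 ± 0.22). Of 8 tested genes that regulate water channels through vasopressin, cyclic AMP and steroid hormones, the adenylyl cyclase Adcy6 was higher in the SCL (0.62 ± 0.09, limma adjusted p = 0.00976). It had a change of -0.08 without normalization. The mineralocorticoid receptor Nr3c2 was higher in the HCL (-1.45 ± 0.10, limma adjusted p = 0.00253). The vasopressin receptor Avpr2 was detected on 1 array of each layer and did not pass (0.89 ± 0.43), and Avpr1a and Avpr1b were detected nowhere.

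**Figure D2:**
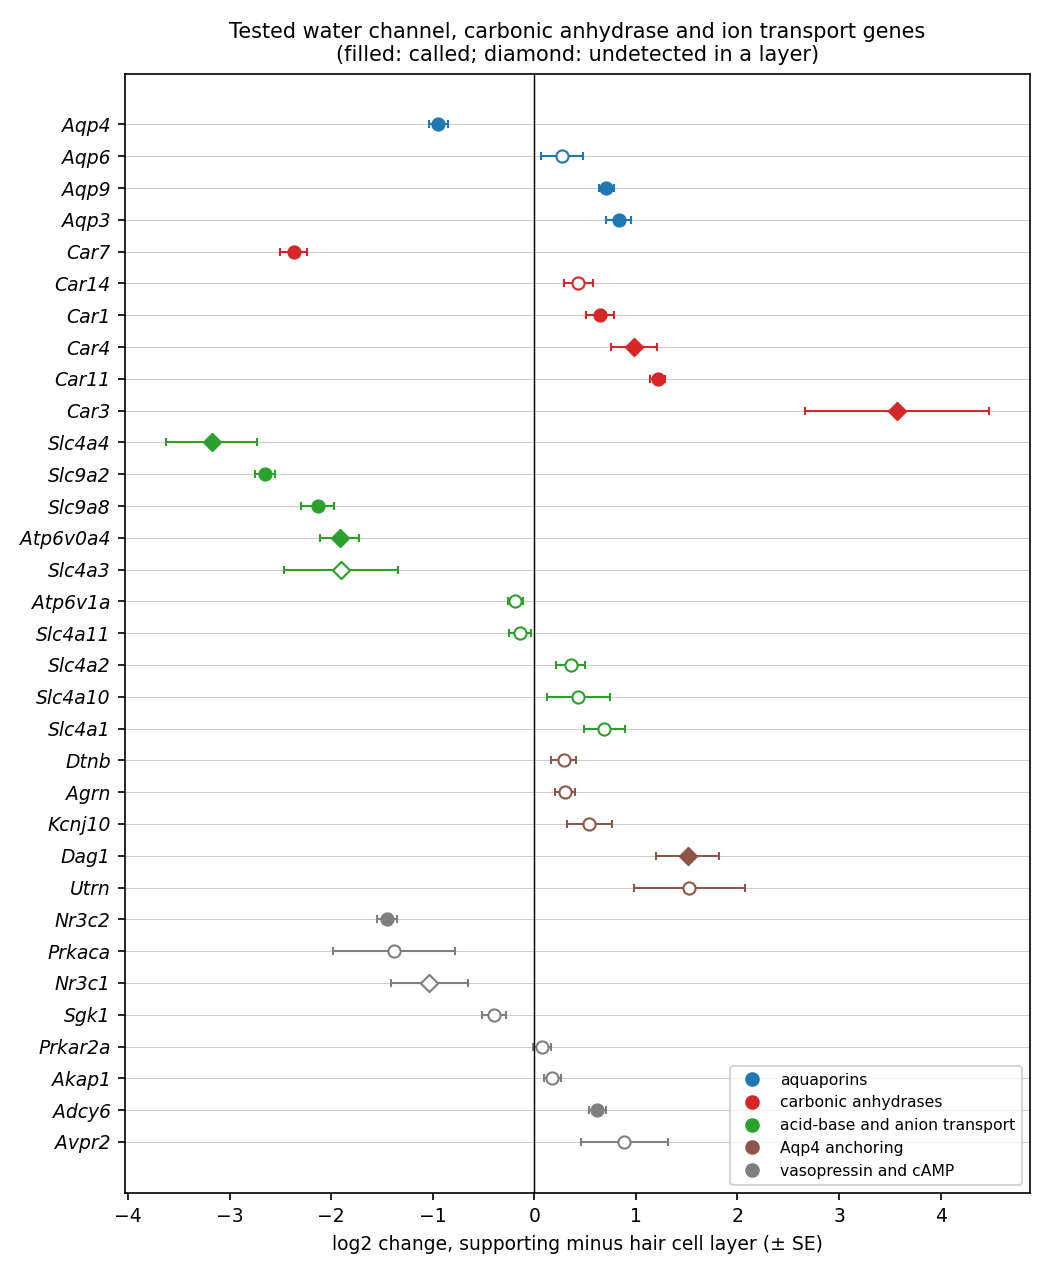
Fitted log2 change, SCL minus HCL, with its standard error (bars), of each tested aquaporin, carbonic anhydrase, acid-base and anion transporter, Aqp4 anchoring gene and vasopressin pathway gene at its brightest probe; filled symbols were called by limma and diamonds were undetected on both arrays of a layer, where the fitted change is no measure of size. Aqp4 lies at -0.94 while Aqp3 and Aqp9 lie at 0.83 and 0.71, and the 4 called acid-base transporters all lie below 0.

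Markers of vessels and connective tissue were read beside the 4 genes that were higher in the SCL. Of 11 tested endothelial and pericyte markers 9 were higher in the SCL, beside 28.2% of all tested genes, and 4 of the 9 were detected there alone. Vwf was higher in the HCL (-2.48 ± 0.16, limma adjusted p = 0.00237). The summed normalized level of 12 such markers was 541 and 599 in the HCL and 1691 and 1739 in the SCL, with Kdr and Pdgfrb detected nowhere. Among connective tissue markers, 4 of the 7 tested were higher in the SCL and 1 (Fbn1) in the HCL. Fbn1 passed the filter through the HCL alone, so its direction was fixed. The summed level of 10 was 3298 and 3331 against 7368 and 7184, with Lum, Pdgfra and Postn detected nowhere. Their part in the differences of the 4 genes was not tested.

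The size of 3 of the 4 differences toward the SCL depended on scaling between arrays. Under quantile normalization, median scaling, cyclic loess and the normalization of the scanner software, the change of Aqp3 lay between 0.83 and 1.0, that of Aqp9 between 0.71 and 0.86 and that of Car4 between 0.97 and 1.02. With no normalization the same changes were 0.19, 0.05 and 0.21. Car3 changed by 3.06 to 3.82 on the fitted scale over the 5 scalings, all toward the SCL, and Aqp4 by -1.62 to -0.80, all toward the HCL. With the scanner software's own values Car3 alone of the 5 was called, and the adjusted p by limma was 0.0674 for Aqp3, 0.155 for Aqp4, 0.125 for Aqp9 and 0.0603 for Car4. With every probe tested, dim or not, limma's adjusted p was 0.0436 for Aqp4, which was still called, and between 0.0582 and 0.104 for the other 4.

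**Figure D3:**
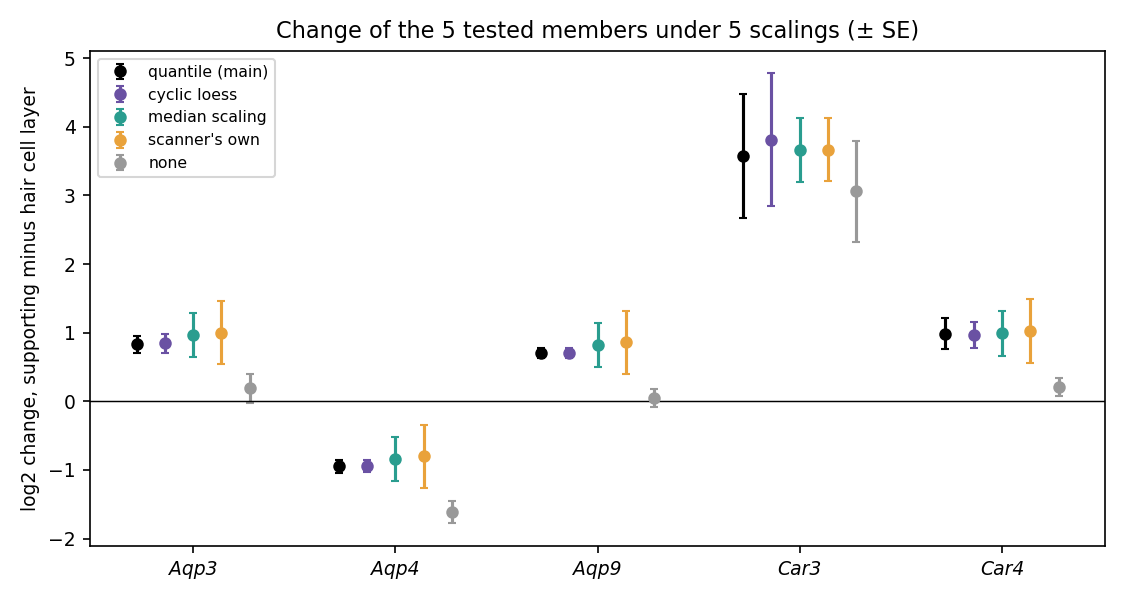
Fitted log2 change, SCL minus HCL, with its standard error (bars), of the 5 tested members under 5 ways of scaling the arrays. Aqp3, Aqp9 and Car4 lie at 0.19, 0.05 and 0.21 with no scaling and between 0.71 and 1.02 with the other 4, while Aqp4 stays below 0 and Car3 above 0 in each.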

How the data were processed

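Single-colour CodeLink whole-genome rat arrays were read for 4 samples, 2 per layer. Per the file headers, the scanner software was CodeLink Expression Analysis 4.0.0.23520. The deposited raw intensity has the local background taken off, so that some values lie below 0, and the deposited normalized intensity is the raw value over the array median. Probes were named from the platform annotation, aligned to the scanner files by value (35125 rows, tolerance 1e-06) and updated to GRCr8 RefSeq symbols; 16915 of 33849 gene probes had a name. Control spots and spots flagged contaminated, irregular or failed were left out. Raw intensities were quantile-normalized, floored at 0.1 of the median, taken to log2 and fitted with limma 3.58.1 (R 4.3.3; lmFit and eBayes, no block, two-sided, Benjamini-Hochberg over 16483 tested probes). A gene was read at its brightest tested probe. The prior had 1.31 degrees of freedom, and only 2 arrays per layer limit the precision. The fit was tested on simulated data. All 10 genes were named; of the related transport lists any tested gene could be named, and of marker lists the counts, summed levels and undetected members. Some genes of the potassium secretion list are not reported here. The members and lists were chosen with earlier results of these data known. Each slide held 1 array, so slide could not be a block, and the files used here hold no separate spot and background columns for normexp; neither alternative was run. Label replicate numbers did not pair the samples. Alternatives covered scaling, the dim-probe filter, the floor, the probe rule, spot flags, the variance model, the replicate block and each array left out; no normalization and cyclic loess were added after seeing the data.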

Additional observations from a re-analysis of the deposited data

How the results depend on the processing

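The counts of called members, 4 toward the SCL and 1 toward the HCL, moved with the setting. With the scanner software's normalized intensity the counts by limma were 1 and 0 (3 and 0 at an unadjusted p under 0.05), and 6871 of all probes were called, against 11112. With no filter on dim probes they were 0 and 2 (4 and 2 unadjusted), the added gene being Aqp5, and 6654 probes were called. Restricting the test to probes detected on all 4 arrays left 2 toward the SCL, Aqp3 and Aqp9. Averaging probes left 0 toward the HCL (1 unadjusted). No normalization, added after the data were seen, left 1 toward the SCL. It put 21.1% of all called probes higher there, against 49.7%, and moved the median change of all tested probes to -0.67, against 0.01. Median scaling moved that median to 0.10 and the scanner software's values to 0.14. Leaving out each array in turn gave 2 to 4 members toward the SCL, 1 toward the HCL, and 7215 to 9994 called probes, where the lone array of a layer is assumed to vary like the other layer. The lowest probe counts were 7215 and 7403 without HCL replicates 1 and 2. With the replicate block 3 and 1 members and 8756 probes were called; Car4 was lost (limma adjusted p = 0.0529). The replicate numbers did not pair the samples: differences between replicates correlated at r = -0.03 across 11059 probes. With the floor at the highest detection limit the fitted change of Car3 was 0.62, still called (limma adjusted p = 0.00979). No tested member changed direction under any setting run. Normexp background correction and a slide block were not run, for want of spot and background columns and because each slide held 1 array. The signal over background limits the dim members, 5 of which could not be tested.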

Other observations

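Aqp11, an aquaporin of intracellular membranes, was singled out after its values were seen. Its probe read 288 and 195 raw in the HCL and 20.8 and 10.3 in the SCL, where it was not detected on either array. The first HCL spot was flagged as contaminated, which left 1 detected array and kept the probe out of the test. With contaminated and irregular spots kept, Aqp11 was at least 6.68-fold higher in the HCL (limma adjusted p = 0.0109), and the layers did not overlap. It then passed the filter through the HCL alone, so its direction was fixed and the test is no support for a difference. With such spots left out, detection on both HCL arrays and neither SCL array held for 8.65% of named gene probes.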
